A study of Mus musculus with 10 samples.

Results

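The nuclei described here come from the hippocampus and carry RNA of Adarb2, of a GABA-synthesising enzyme, and of Lamp5, Ndnf or Sv2c, the combination by which neurogliaform-like interneurons are looked for in single-nucleus data. Of 15661 barcodes, 145 met the rule. They were chosen by counts of unique molecular identifiers (UMIs, tags that let copies of 1 captured RNA count once). The rule asked for at least 500 UMIs in all, at least 2 UMIs of Gad1 plus Gad2, and at least 3 of Adarb2. Adarb2 also had to reach the sum of Nxph1 and Lhx6, and Lamp5, Ndnf and Sv2c together had to give at least 2 UMIs and reach the sum of Vip and Cnr1, with no UMI of Zic1. These 11 genes and the total chose the nuclei, so their levels are a description and no finding.

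The series is a single-nucleus RNA sequencing survey of hippocampus from unstimulated mice of the C57B/6J strain, wild type throughout and between 4 and 7 months old. The labels give 10 samples in 1 group, of which 4 are titled RNASET2 controls and share every characteristic with the rest. Nuclei came from tissue frozen after cervical dislocation, were sorted after DNA staining with 7AAD, and were loaded at about 5000 per sample for droplet sequencing of transcript 3′ ends. The deposited matrix pools all samples, and its 7 barcode suffixes, called barcode sets here, are not tied to samples by any label, so all nuclei counted as 1 sample and no comparison has a replicate check or a p-value.

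Neurogliaform cells are GABA neurons with a short, dense axon that releases GABA diffusely, reaching both GABA-A and GABA-B receptors on many nearby cells. They are linked by gap junctions and, in the hippocampus, are best known from stratum lacunosum-moleculare, where they receive input from the entorhinal cortex and the thalamus. The related ivy cells lie nearer the pyramidal cell layer and make nitric oxide and neuropeptide Y. Lamp5, a lysosome-associated membrane protein, Ndnf, a secreted neuron-derived factor, and Sv2c, a synaptic vesicle protein, mark many of these cells in mouse, while Lhx6 is kept by those born in the medial ganglionic eminence.

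The matrix held 101300889 UMIs, and the median per barcode ran from 1012 to 8176 over the 7 barcode sets. The 145 nuclei had a median of 9301 UMIs (1583 to 70508), against 8646 in 781 nuclei of 3 other interneuron classes. Those classes were 183 Adarb2 nuclei with Vip or Cnr1, 101 Sst nuclei, and 497 Nxph1 or Lhx6 nuclei with Erbb4 and no Sst. A further 3261 nuclei with at least 2 UMIs of Slc17a7, which loads glutamate into vesicles of excitatory neurons, and no Gad UMI served as an excitatory reference. Levels are UMIs of a gene per 1000000 UMIs of a class (CPM) and are compared only within a gene, since they are not corrected for length. Ratios have exact 95% Poisson intervals, and shares have exact 95% binomial (Clopper-Pearson) intervals. Both cover counting error only. In CPM, fewer molecules of 1 gene and more of all others cannot be told apart.

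The 145 nuclei made up 9.28% (7.88 to 10.8%) of 1563 inhibitory nuclei. By barcode set they numbered 32, 40, 33, 10, 15, 15 and 0, or 8.02, 11.3, 11.3, 5.24, 8.43 and 10.2% of the inhibitory nuclei in sets 1 to 6, while set 7 held only 2 inhibitory nuclei. Set 4 was lowest and sets 2 and 3 highest, and their intervals of 2.54 to 9.42% in set 4 and 8.20 to 15.1% in set 2 overlapped. Of the 21 barcode sequences found in a pair of sets, 0 belonged to these nuclei.

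The nuclei were not of 1 kind. Slc17a7 gave at least 1 UMI in 44 of 145, against 68 of 781 in the other classes at similar depth, and Erbb4, the neuregulin receptor that most hippocampal interneurons carry, gave under 3 UMIs in 44 of 145. Both were therefore used, after the values were seen, to split the nuclei into 85 with no Slc17a7 and at least 3 Erbb4 UMIs (the Erbb4 members), 44 with Slc17a7, and 16 with neither Slc17a7 nor 3 Erbb4 UMIs (the members with little Erbb4). The median Erbb4 count was 1 in the members with Slc17a7, 0 in those with little Erbb4 and 49 in the Erbb4 members.

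**Figure D1:**
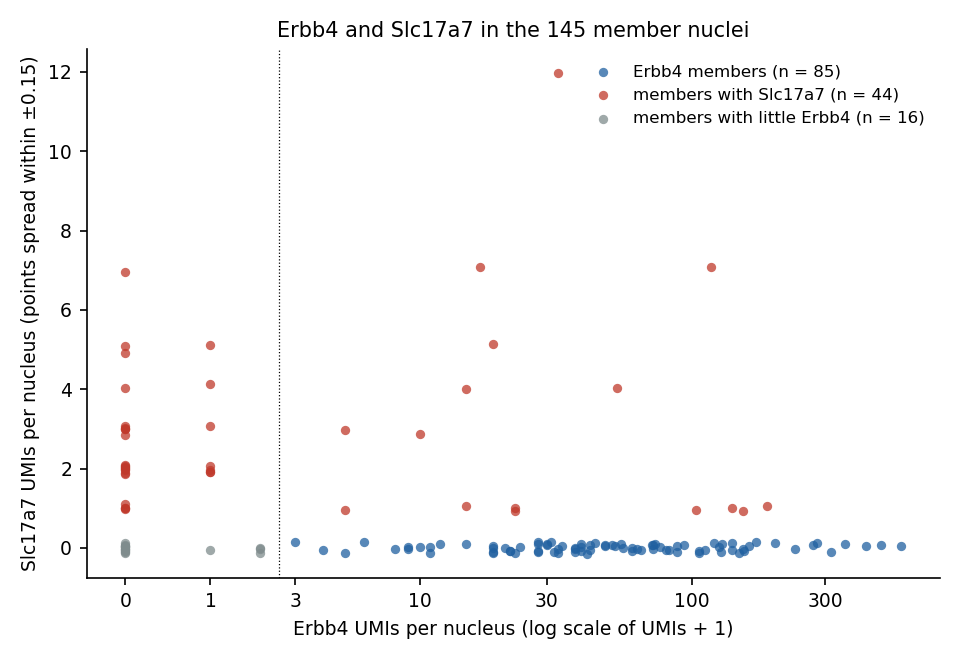
Each point is 1 of the 145 nuclei, with its Erbb4 UMIs on the x axis (log scale of UMIs + 1) and its Slc17a7 UMIs on the y axis. Of the 44 nuclei with Slc17a7, 28 lie left of the dotted line drawn just below 3 Erbb4 UMIs, and the 85 Erbb4 members spread along the bottom from 3 to 556 Erbb4 UMIs.

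Other genes differed along this split. Glis3, a zinc-finger transcription factor, had a UMI in 37 of 44 members with Slc17a7 and in 3 of 85 Erbb4 members. Prox1, a homeobox factor known from dentate granule cells and from interneurons born in the caudal ganglionic eminence, had a UMI in 36 of 44 and in 28 of 85. Reln had a UMI in 7 of 44 members with Slc17a7 and in 55 of 85 Erbb4 members, although the members with Slc17a7 were deeper (median 12510.5 against 7601 UMIs). Of the genes the rule used, given as a description, Nxph1, a neurexophilin found in most interneurons, had a UMI in 12 of 44 and in 71 of 85, and Gad2 gave no UMI in 33 of 44 members with Slc17a7 and in 6 of 85 Erbb4 members.

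The marker sums differed along the same lines. The 8 genes listed as neurogliaform or ivy markers outside the rule (Reln, Npy, Nos1, Id2, Kit, Cplx3, Gabrd and Pde11a) summed to 191 CPM in the members with Slc17a7, 156 in those with little Erbb4, where 5 of the 8 were at 0, and 2476 in the Erbb4 members, against 731 CPM in the other classes and 208 in the excitatory reference. The 5 excitatory markers summed to 1069 CPM in the members with Slc17a7, 449 in those with little Erbb4 and 262 in the Erbb4 members, against 345 CPM in the other classes and 1607 in the excitatory reference. Slc17a7 is 1 of these 5 and chose both the split and the excitatory reference, and it gave 194 CPM of the sum in the members with Slc17a7 and 0 in the other subsets by construction. Most of the sum in the Erbb4 members came from Reln (1557 CPM), Pde11a (570) and Kit (207). As a group they thus carried these markers of the neurogliaform label but not the whole list, since Npy, Nos1 and Gabrd were not highest in them (values below). The other 60 nuclei had sums of these neurogliaform and ivy markers near that of the excitatory reference. Per nucleus the sum ran from 0 to 12658 CPM in the Erbb4 members, with a median of 2473. Counts of genes are given below for the 145 and for the Erbb4 members, and single genes mainly for the Erbb4 members.

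Among nuclei with at least 2 Slc17a7 UMIs anywhere in the data, 167 of 3887 (4.30%, 3.68 to 4.98%) had at least 2 Gad UMIs. They were 13.5% (113 of 837) where Prox1 also gave at least 2 UMIs, and 41 of 2729 where Prox1 gave none. Of the rule's genes, Adarb2 was at 1627 CPM and Sv2c at 85 CPM in those 837 nuclei, against 103 and 12.3 CPM in the 2729. The doublet caller marked 4 of the 44 members with Slc17a7 and 1 of the 85 Erbb4 members, but it marked under 0.5% of nuclei in sets 2, 5, 6 and 7 and is not taken to have worked there. The 5 oligodendrocyte markers were all detected and summed to 1151 CPM in the members with Slc17a7, against 288 CPM in the Erbb4 members, while the 4 microglial markers summed to 306 and 189 CPM and the 4 astrocyte markers, with Aqp4 at 0 in the members with Slc17a7, to 87.3 and 39.3 CPM. The oligodendrocyte sum was uneven between nuclei, with a median of 151 and a highest value of 4699 CPM per nucleus in the members with Slc17a7, against 0 and 5090 CPM in the Erbb4 members. The part of doublets, free RNA and depth in the split was not tested.

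Of the genes that chose the nuclei, Sv2c was the most widely seen, with a UMI in 114 of 145, then Lamp5 in 70 and Ndnf in 40. Sv2c alone met the rule in 56 nuclei, of which 26 were members with Slc17a7, 11 had little Erbb4 and 19 were Erbb4 members. All 16 nuclei with UMIs of all 3 genes were Erbb4 members. Lamp5 stood at 30.1 CPM in the members with Slc17a7, 62.4 in those with little Erbb4 and 172 (142 to 206) in the Erbb4 members, against 34.3 CPM in the other classes. Ndnf was at 9.04 CPM in the members with Slc17a7, 0 in those with little Erbb4 and 200 (168 to 236) in the Erbb4 members, against 19.7 CPM in the other classes. Sv2c was above the other classes (34.7 CPM) in all 3 subsets, at 172 CPM in the members with Slc17a7, 337 in those with little Erbb4 and 278 in the Erbb4 members.

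Many nuclei lay at the limits of the rule. At the minimum of 2 Gad UMIs stood 43 members, 26 of them with Slc17a7, and 155 nuclei met all else with 1 Gad UMI. Those 43 had 673 CPM of Erbb4 and 782 of Glis3, and the 155 just outside had 396 and 898 CPM. The 48 members with 2 UMIs of Lamp5, Ndnf and Sv2c together had 3143 CPM of Erbb4, against 1900 CPM in 84 nuclei with 1 such UMI. On the Adarb2 axis, 3 members held exactly 3 UMIs and 7 nuclei met all else with 2.

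A further 60 nuclei met all else but had more Nxph1 plus Lhx6 than Adarb2. Their levels were 184 CPM of Lamp5, 94.9 of Ndnf, 235 of Sv2c, 11284 of Erbb4 and 690 of Reln. Lhx6, the medial eminence factor, was at 10.6 CPM in the 145 members, against 53.1 CPM in these 60. Lhx6 is part of the sum that set these 60 apart, so this is a description only. By the rule itself, nuclei with Lamp5, Erbb4 and more Nxph1 and Lhx6 than Adarb2 lie outside the class. The 18 nuclei that failed only because Vip plus Cnr1 exceeded Lamp5, Ndnf and Sv2c had 242 CPM of Ndnf and 1549 of Reln.

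The markers that the rule did not use differed in level among classes. Reln, the secreted glycoprotein reelin, was at 739 CPM in all 145 and at 1557 CPM (1465 to 1653) in the Erbb4 members, against 370 in the Vip or Cnr1 class, 878 in the Sst class, 263 in the Nxph1 and Erbb4 class and 23.2 in the excitatory reference. The intervals of the Erbb4 members and these 4 classes did not overlap. Reln lies on chromosome 5 (GRCm38, 21884454 to 22344702, minus strand) and had a UMI in 55 of 85 Erbb4 members.

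Kit, the receptor tyrosine kinase for stem cell factor, lies on chromosome 5 (75574916 to 75656722, plus strand). It was at 99.3 CPM in all 145 and at 207 CPM (174 to 244) in the Erbb4 members, against 20.9 in the Vip or Cnr1 class, 5.72 in the Sst class, 19.5 in the Nxph1 and Erbb4 class and 49.5 in the excitatory reference. A UMI of Kit was present in 38 of 85 Erbb4 members and in 5 of 101 Sst nuclei (median 7601 and 8163 UMIs), and after each nucleus was thinned to 2000 UMIs the shares were 23.1 and 2.02%. Levels in the Vip or Cnr1 class and the Nxph1 and Erbb4 class had overlapping intervals.

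Pde11a, a phosphodiesterase that degrades cAMP and cGMP, was at 285 CPM in all 145 and at 570 CPM (514 to 629) in the Erbb4 members, against 39.1 in the Vip or Cnr1 class, 14.3 in the Sst class, 357 in the Nxph1 and Erbb4 class and 89.6 in the excitatory reference. Id2, an inhibitor of helix-loop-helix factors, was at 33.5 CPM (21.2 to 50.3) in the Erbb4 members, against 5.73 in the Vip or Cnr1 class, 0.954 in the Sst class and 15.6 in the Nxph1 and Erbb4 class. The ivy-cell genes were not highest in the members. Npy, neuropeptide Y, was at 24.8 CPM (14.4 to 39.6) in the Erbb4 members, against 75.3 in the Sst class and 14.3 in the Nxph1 and Erbb4 class. Nos1, neuronal nitric oxide synthase, was at 62.6 CPM (45.3 to 84.4) in the Erbb4 members, against 68.7 CPM (61.3 to 76.7) in the Nxph1 and Erbb4 class. Cplx3, a complexin, had a UMI in 5 of 85 Erbb4 members (7.28 CPM), against 8 of 781 nuclei of the other classes (1.06 CPM), and Gabrd, the delta subunit of GABA-A receptors, was at 14.6 CPM in them, against 23.6 CPM in the other classes.

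**Figure D2:**
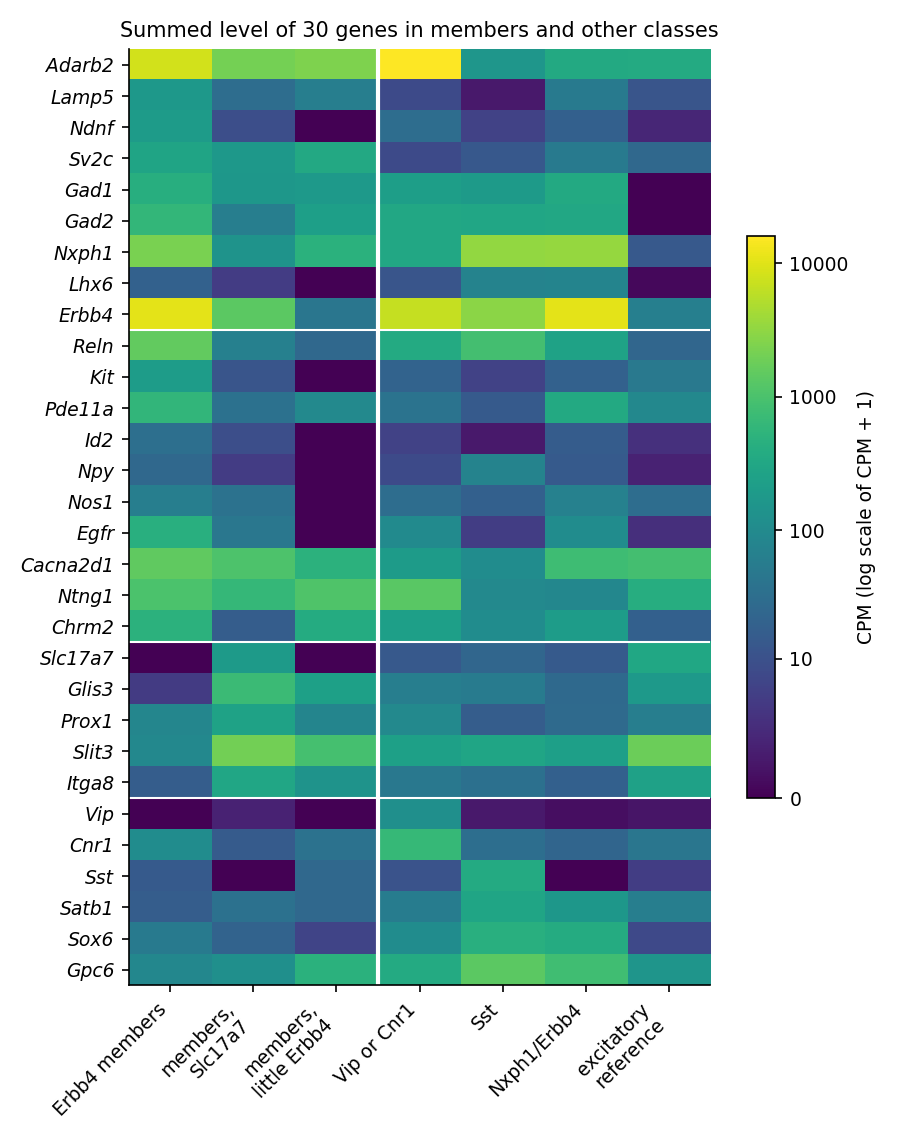
Colour gives the summed level of 30 genes in CPM (log scale of CPM + 1), with the 3 subsets of members on the left of the white line and the 3 other interneuron classes and the excitatory reference on the right. The Erbb4 members carry Reln, Kit, Pde11a and Egfr, which are low or at 0 in the members with Slc17a7 and with little Erbb4, while Glis3 and Slit3 are high in the members with Slc17a7 and in the excitatory reference.

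Against the 781 nuclei of the other classes, 250 of 8618 genes (2.9%) were higher in the 145 members by 2-fold or more, and 275 (3.19%) lower by as much, among genes with at least 100 UMIs over both sides. In the Erbb4 members, 129 of 8303 genes (1.55%) passed 2-fold upward and 365 (4.4%) downward. The median of all tested genes was near no difference in both (log2 0.01 and -0.02). Of the 8 neurogliaform and ivy markers 7 were tested. In all 145 Kit alone passed 2-fold (median log2 0.31), and in the Erbb4 members Reln, Id2, Kit and Pde11a did (median log2 1.31), with 0 lower in both.

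The 2 lists of leading genes differed mostly on the higher side. For the 145, the genes above the other classes that came first by the lower bound of the interval were Smoc2, a secreted calcium-binding matrix protein (10.9-fold, 7.67 to 15.6), Glis3 (8.84-fold, 7.65 to 10.2), Slc24a4, a sodium-calcium-potassium exchanger (6.87-fold), and the integrin subunit Itga8 (5.54-fold). Of the 12 such genes, 9 lay below the other classes in the Erbb4 members, Slc17a7 among them by construction and Maml2 and Zbtb20 only just (0.881- and 0.987-fold). Besides Slc17a7, Glis3 alone of the 9 had an interval wholly below 1 (0.023 to 0.331). Smoc2, Plk5 and Plekha2 had 1 UMI each, and their intervals and those of Slc24a4 (0.184 to 1.40) and Itga8 (0.282 to 1.05) included 1. Glis3 was at 344 CPM in all members but 4.37 CPM in the Erbb4 members, against 38.9 CPM in the other classes. Kit (11.5-fold) and Lmo7, a LIM-domain protein (2.18-fold), were also higher in the Erbb4 members, and the 12 genes lowest in the 145 were lower in the Erbb4 members as well.

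**Figure D3:**
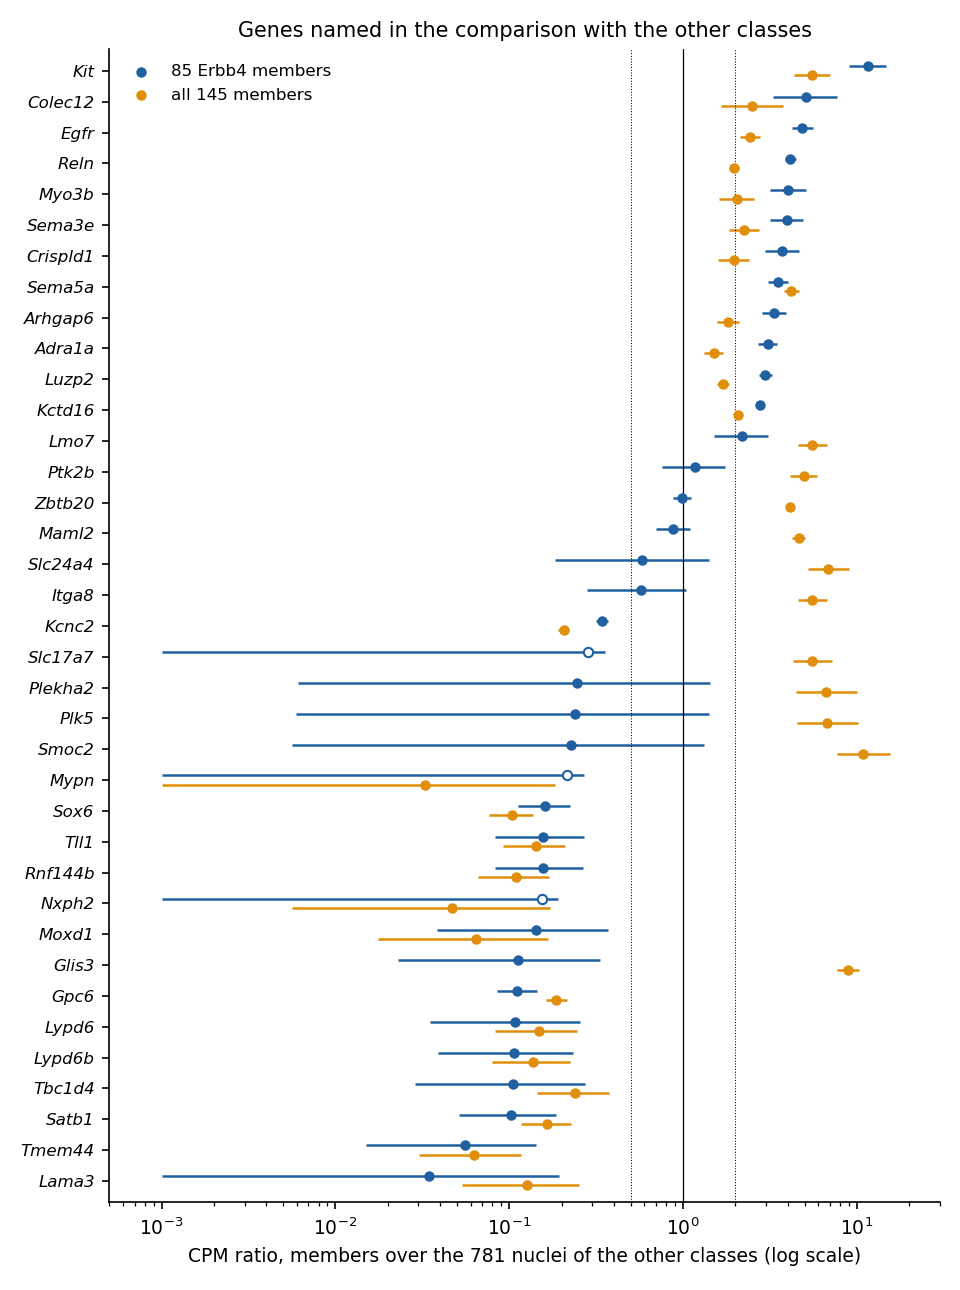
Points give the CPM ratio of members over the 781 nuclei of the other classes (log scale) for each named gene, in the 85 Erbb4 members and in all 145, with exact 95% intervals. Open points are upper bounds where the members had no UMI, intervals that reach 0 are drawn to the left edge, and dotted lines mark 2-fold. Kit leads the Erbb4 members at 11.5-fold, and Glis3 is on opposite sides of 1 in the 2 groups of members.

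In the Erbb4 members Kit was 11.5-fold higher (9.05 to 14.7), from 142 UMIs in 38 nuclei, against 136 UMIs in 65 nuclei of the other classes. By barcode set 1 to 6 its level was 49.7, 228, 237, 132, 336 and 674 CPM in the Erbb4 members, against 15.4, 11.8, 26.4, 11.1, 33.1 and 25 CPM in the other classes. Genes were named only if their direction was the same in 5 of the 6 sets, all but set 4. The direction was thus free to differ in set 4 alone, where the members were higher too. Over the 6 sets, the lowest member value was above the highest value of the other classes.

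Egfr, the epidermal growth factor receptor (chromosome 11, 16752203 to 16918158, plus strand), was 4.87-fold higher (4.24 to 5.57). Its level by set was 155, 536, 503, 430, 693 and 775 CPM in the Erbb4 members, against 75.7, 89.7, 82.6, 134, 80.4 and 79.2 CPM in the other classes. Reln was 4.15-fold higher (3.86 to 4.45), at 1080, 1276, 2109, 1241, 2183 and 2495 CPM in the Erbb4 members, against 316, 373, 417, 411, 203 and 496 CPM. For both genes too, no set of the members overlapped the other classes.

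Also among the 12 higher genes were the collectin Colec12 (5.07-fold, 3.28 to 7.71), the unconventional myosin Myo3b (4.03-fold), Sema3e (3.94-fold) and Sema5a (3.52-fold), both semaphorins, and the secreted Crispld1 (3.73-fold). Arhgap6, a GTPase-activating protein, was 3.34-fold higher, Adra1a, the alpha-1A adrenergic receptor, 3.07-fold, and Luzp2 2.97-fold. Kctd16, an auxiliary subunit of GABA-B receptors, was 2.77-fold higher (2.64 to 2.91), at 3068 CPM in the Erbb4 members, against 1107 CPM, with UMIs in 83 of 85. Seen in most Erbb4 members, it was the most widely detected of the 12. These ratios stayed at least 2-fold whichever barcode set was left out.

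Lower in the Erbb4 members were Tmem44 (0.0554-fold, 0.0151 to 0.142), Satb1, a chromatin organiser of medial eminence interneurons (0.103-fold, 0.0512 to 0.185), Gpc6, a glypican of the cell surface (0.111-fold, 0.0847 to 0.144), and Sox6, a transcription factor of the same lineage as Satb1 (0.161-fold). Most reference nuclei were chosen by Nxph1 plus Lhx6 above Adarb2, so low Satb1 and Sox6 were in part fixed by that choice. Both were also at least 2-fold lower against the Vip or Cnr1 class, where Sox6 rested on set 1. Gpc6 by set 1 to 6 was at 99.4, 109, 33.9, 33.1, 189 and 101 CPM in the Erbb4 members, against 642, 823, 823, 828, 587 and 696 CPM in the other classes, with no overlap. Tmem44, a transmembrane protein, had 4 UMIs in the members, from sets 2 and 5 alone, and was at 0.015-fold without set 5. Nxph2, a neurexophilin, and the sarcomeric protein Mypn gave no UMI in the Erbb4 members, against 28.2 and 20.3 CPM. They were thus at most 0.155- and 0.215-fold, and Nxph2 at most 0.253-fold without set 2. The Nxph1 and Erbb4 class held 205 of the 214 Nxph2 UMIs and 146 of the 154 Mypn UMIs of the other classes. Both were thus low against that class, and the Vip or Cnr1 and Sst classes held too few UMIs to compare. Lypd6 and Lypd6b, modulators of nicotinic receptors, stood at 0.109- and 0.107-fold, and at 0.0521- and 0.0691-fold without set 1.

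**Figure D4:**
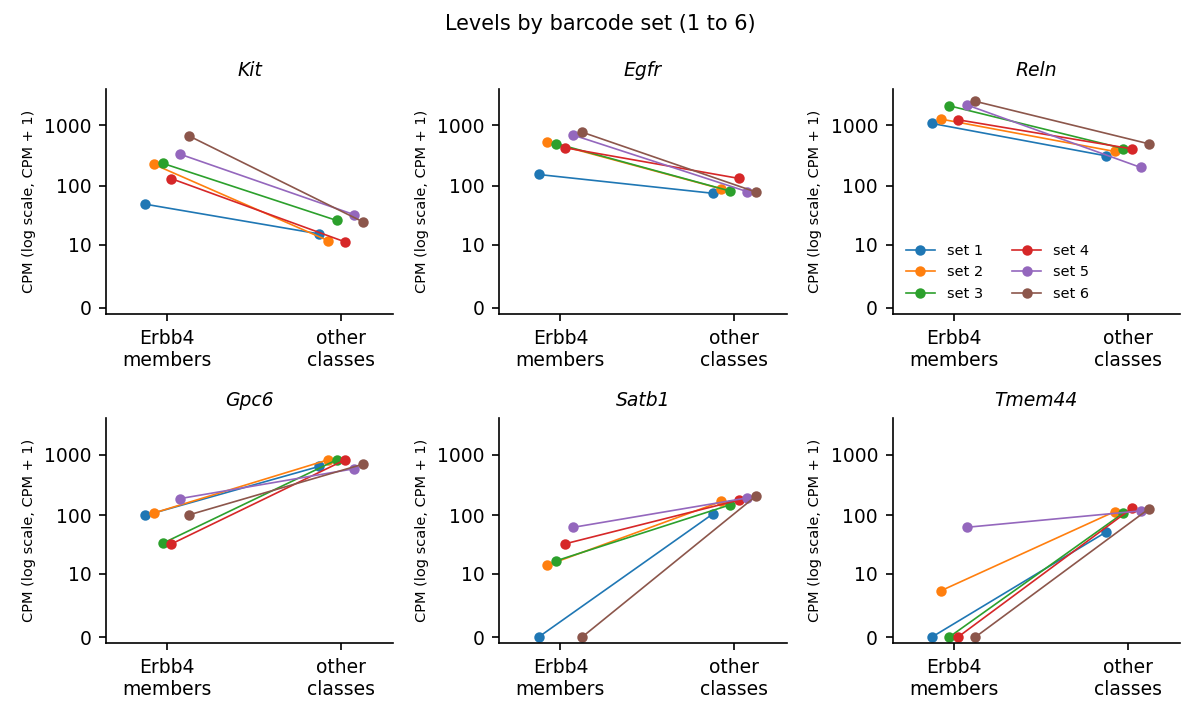
Each line joins the level of 1 barcode set (1 to 6) in the Erbb4 members, on the left, and in the other classes, on the right, in CPM (log scale of CPM + 1). Kit, Egfr and Reln are higher in the members of every set and Gpc6, Satb1 and Tmem44 lower, with Tmem44 in set 5 (63 against 118 CPM) the closest pair. Genes were named only if their direction was the same in all sets but set 4, so the agreement in direction was mostly fixed by that choice.

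Counts by list in the Erbb4 members stand against 1.55% higher and 4.4% lower over all 8303 genes, so 0 called in a short list is near that share. By function, the transcription factors of interneuron lineages split both ways. Of 24 listed, 19 were tested, and 3 were at least 2-fold higher and 6 lower in the Erbb4 members, with a median log2 ratio of -0.06. In all 145, 4 were higher and 9 lower, against 2.9% and 3.19% over all genes. Nfib and Nfix, nuclear factor I genes, were 2.41-fold (2.21 to 2.61) and 2.51-fold (1.93 to 3.25) higher and Id2 3.02-fold, while Satb1 and Sox6 were lower as given above. Prox1 was at 84.5 CPM in the Erbb4 members, against 93.8 CPM in the Vip or Cnr1 class.

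Genes of GABA synthesis and transport did not pass 2-fold. Of 7 tested, 0 were called (median log2 0.01), which is near the shares over all genes (1.55% higher and 4.4% lower). Slc32a1, the vesicular transporter, was at 0.913-fold (0.555 to 1.43). Of 14 GABA receptor genes, Gabrg1, the gamma-1 subunit, alone passed at 2.06-fold (1.45 to 2.88), and it was at 1.88-fold without set 1. The list's median was log2 0.29. Gap junction genes were too rarely seen, with 2 of 5 tested and Gjd2, connexin 36, at 4.37 CPM from 3 nuclei.

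Glutamate receptors carry the excitatory input to these cells. None of 13 AMPA, kainate and delta receptor genes passed 2-fold, which is near the shares over all genes (1.55% higher and 4.4% lower). Of 5 NMDA receptor genes Grin2a was 2.08-fold higher (1.99 to 2.18), at 3027 CPM in the Erbb4 members, against 1453 CPM, and at 1.98-fold at the lowest with a set left out. It was also at 3703 CPM in the members with Slc17a7 and 3751 in the excitatory reference.

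Receptors for modulators showed 3 differences among 13 tested. Adra1a was higher as above, Htr4, a serotonin receptor, was at 0.323-fold (0.187 to 0.522, and 0.184-fold without set 1), and Chrm2, the M2 muscarinic receptor, was 2.47-fold higher (2.19 to 2.78) but 1.34-fold without set 2. Of 4 neuropeptide genes tested, Tac1, the substance P precursor, and Nxph2 were lower. Tac1 had 1 UMI in the members, against 115 in the other classes (0.096-fold, or 0.515-fold without set 1). Nxph2 was low against the Nxph1 and Erbb4 class, which held nearly all of its UMIs.

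Ion channel genes were counted in 3 lists. Of 14 Kv1 and Kv4 genes 0 passed in the Erbb4 members, again near the shares over all genes (1.55% higher and 4.4% lower). Among 22 other potassium channels Kcnc2, the Kv3.2 subunit of fast-spiking cells, was at 0.342-fold (0.314 to 0.372). It was at 826 CPM in the Erbb4 members, against 2414 CPM, and did not pass 2-fold against the Vip or Cnr1 class alone. Kcnn2, a calcium-activated SK channel, was 2.08-fold higher but 1.96-fold at the lowest with a set left out. Among 22 sodium, HCN and calcium channel genes Cacna2d1, the alpha2delta-1 subunit, was 2.73-fold higher (2.55 to 2.92), and Cacna2d2, its paralog, at 0.408-fold (0.304 to 0.537) and at 0.204-fold without set 1. Cacna2d1 was at 1149 to 1989 CPM over the 6 sets in the Erbb4 members, against 477 to 821 CPM in the pooled other classes, which did not overlap. It was at 203 CPM in the Vip or Cnr1 class and 111 CPM in the Sst class. Against the Nxph1 and Erbb4 class, the largest, it did not pass 2-fold.

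Matrix and guidance genes passed 2-fold in both directions. Of 12 matrix genes, Reln, Hapln1, a hyaluronan link protein (2.45-fold, 1.91 to 3.13), and Vcan, versican (2.42-fold, 1.94 to 3), were higher and 4 lower. Among the lower was Lama3, a laminin chain, with 1 UMI (0.0346-fold, or at most 0.149-fold without set 3, which held it). Hapln1 and Vcan were at 1.89- and 1.79-fold without set 3. Vcan also marks oligodendrocyte precursors, whose marker Pdgfra was at 0 in the Erbb4 members. Of 29 guidance genes, 6 were higher and 4 lower (median log2 -0.19), against 1.55% and 4.4% over all genes. In all 145, 10 were higher and 1 lower, against 2.9% and 3.19% over all genes. Ntn1, netrin-1, was 3.73-fold higher (2.34 to 5.78) and 2.17-fold without set 3, Ntng1, netrin-G1, 2.53-fold, and Unc5c, a netrin receptor, 2.2-fold and 1.83-fold without set 3. The slit ligands Slit2 and Slit3 were at 0.281- and 0.377-fold, and at 0.0674-fold without set 1 and 0.244-fold without set 2.

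Among 27 synaptic adhesion genes 0 were higher and 4 lower in the Erbb4 members, against 1.55% and 4.4% of all genes. Elfn1, a postsynaptic organiser known from Sst cells, was lowest at 0.184-fold (0.0792 to 0.366). Of 14 genes of trophic signalling, Kit, Fgf13 (2.31-fold) and the receptor Alk (2.29-fold, and 1.92-fold without set 2) were higher, and Gfra1, a GDNF co-receptor, was lowest at 0.198-fold, or 0.0757-fold without set 1. Of 18 synaptic release genes, Unc13c, a vesicle primer, was higher (2.61-fold, 2.04 to 3.31) and 3 lower, among them Syt2, the fast calcium sensor of fast-spiking terminals (0.179-fold, or 0.0403-fold without set 2). Of 11 genes of nitric oxide and cGMP signalling, Gucy1a1, a subunit of the nitric oxide receptor, was higher at 2.12-fold (1.72-fold without set 2) and 2 were lower. The remaining lists gave 2 lower of 5 neuropeptide receptors (Oprd1 and Tacr1), 1 lower of 4 calcium-binding proteins (Calb1, 0.223-fold), Egfr alone higher of 5 neuregulin genes, and 0 of the 1 immediate early gene tested.

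The 6 H3K4 methyltransferase genes, the subject of the series' title, included 0 past 2-fold. For so short a list this is near the shares over all genes (1.55% higher and 4.4% lower in the Erbb4 members). Setd1b was at 22.5 CPM in all 145 and 21.8 CPM (12.2 to 36) in the Erbb4 members, against 18.7 CPM (15.8 to 22.1) in the other classes.

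The Vip or Cnr1 class shares high Adarb2 with the members. Against it, 205 of 5212 genes (3.93%) were higher by 2-fold or more and 135 (2.59%) lower in all 145 (the 6 leading genes upward were Chst9, Pde11a, Cacna2d1, Smad3, Glis3 and Hapln1). In the Erbb4 members 113 of 4289 (2.63%) were higher and 127 (2.96%) lower. In the Erbb4 members Pde11a led at 14.6-fold (11.4 to 18.9), then Vcan at 10.4-fold, Kit at 9.92-fold, Crispld1 at 9.31-fold, the HMG-box factor Tox3 at 7.75-fold and Cacna2d1 at 7.3-fold (6.49 to 8.22). Pde11a was 23.4-fold and Tox3 15.7-fold higher without set 1.

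Lower against the Vip or Cnr1 class were Synpr, synaptoporin of synaptic vesicles (0.144-fold, 0.117 to 0.176), and Cadps2, a priming factor of dense-core vesicles (0.0988-fold, 0.0756 to 0.127). Lama3 had 1 UMI (0.0271-fold, or at most 0.144-fold without set 3, which held it). Glis3 and Sema5b had 3 each in the Erbb4 members (0.071- and 0.0693-fold, and Glis3 0.0436-fold without set 4). All 4 tested markers of neurogliaform and ivy cells, Reln, Nos1, Kit and Pde11a, were at least 2-fold higher, Nos1 the least at 2.07-fold (1.36 to 3.13; 1.88-fold at the lowest with a set left out). Of 13 GABA receptor genes 4 were at least 2-fold higher and 0 lower (2.63% and 2.96% over all genes), with a median log2 of 0.75. They included Gabbr2, the GABA-B2 subunit (2.86-fold, 2.5 to 3.28), Gabrg3 (2.72-fold, 2.56 to 2.89) and Gabrb2 (2.07-fold), and Gabrb2 came to 1.78-fold at the lowest with a set left out. Sox6 was at 0.481-fold but at 4.11-fold without set 1, so its direction rested on that set.

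Against the Sst class, 136 of 3141 genes (4.33%) passed 2-fold upward and 137 (4.36%) downward in the Erbb4 members. Egfr was at 450 CPM in the Erbb4 members, against 4.77 CPM from 5 UMIs in 3 of 101 Sst nuclei (94.4-fold, 40 to 293). Pde11a was 39.8-fold higher, Kit 36.1-fold and Nfib 12.1-fold (9.64 to 15.3), and Gpc6 was at 0.0629-fold (0.0476 to 0.0816). These values rest on few Sst UMIs: Egfr was 339-fold and Pde11a 429-fold higher without set 2, Nfib 26.7-fold without set 3 and Kit 65.7-fold without set 5. Against the Nxph1 and Erbb4 class, 123 of 6770 genes (1.82%) were higher and 303 (4.48%) lower. Ntng1 led there at 11.9-fold (10.5 to 13.4), then Kit at 10.6-fold, Sema3e at 6.56-fold, Reln at 5.91-fold and Egfr at 4.15-fold. Ntng1 was not higher than in the Vip or Cnr1 class, at 1034 CPM in the Erbb4 members, against 1352 CPM. Kit was thus above each of the 3 classes by 9.92-fold or more.

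The Erbb4 members differed among themselves along Ndnf, a split made after the values were seen, with 36 nuclei that had an Ndnf UMI and 49 without. The 36 were shallower (median 6186.5 against 9484 UMIs) and fell 3, 9, 8, 2, 8 and 6 over sets 1 to 6, against 12, 12, 9, 3, 6 and 7 for the 49. Of 1209 genes, 42 (3.47%) passed 2-fold upward and 75 (6.2%) downward in nuclei with Ndnf.

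Reln led this split at 13.1-fold (11 to 15.8). Its lowest, median and highest level per nucleus were 0, 3294 and 11302 CPM with Ndnf, against 0, 0 and 9051 CPM without, and 34 of 36 and 21 of 49 nuclei had a UMI. After thinning to 2000 UMIs these were 30 of 32 and 12 of 46. Single nuclei of the 2 groups overlapped, since some of the 36 had no Reln and some of the 49 had much. Kit was at 412 CPM with Ndnf, against 101 CPM without, in 28 of 36 and 10 of 49 nuclei, and 14 of 32 and 4 of 46 after thinning, with a ratio of 4.06, or 8.07 without set 2.

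Also higher with Ndnf were the collagen Col19a1 (6.53-fold, 4.98 to 8.65), Sema6a (5.95-fold, 4.28 to 8.39) and Sema3e (5.58-fold, 9.43-fold without set 2), semaphorins both, the cell-surface mucin Parm1 (5.83-fold) and the contactin Cntn5 (3.5-fold, 3.2 to 3.82). Cntn5 was at 6051 CPM with Ndnf, against 1729 CPM without. Lower was Chrm2, with 1 UMI in 36 nuclei, against 342 UMIs in 14 of 49, a ratio of 0.00568 (0.000144 to 0.0319). Without set 5, which held that 1 UMI, the ratio was at most 0.0182. Meis2, a homeobox factor, had UMIs in 3 of 36 and 15 of 49 (0.0309-fold, 0.0623-fold without set 1). Pcdh15, a protocadherin, was at 317 CPM with Ndnf, against 2651 CPM without (0.12-fold, 0.0618-fold without set 3).

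**Figure D5:**
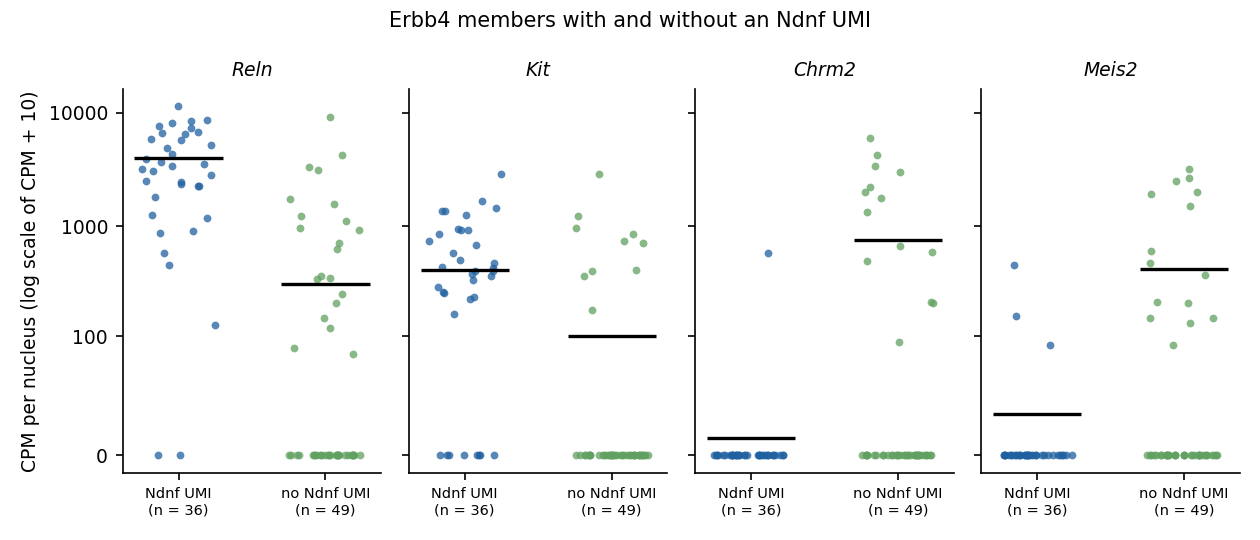
Each point is 1 Erbb4 member with its level of Reln, Kit, Chrm2 or Meis2 in CPM (log scale of CPM + 10), for 36 nuclei with an Ndnf UMI on the left of each panel and 49 without on the right, and black bars give the level over all nuclei of a group. Reln has a UMI in 34 of the 36 and 21 of the 49, while Chrm2 has one in 1 and 14.

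Lamp5 was at 167 CPM with Ndnf, against 174 CPM without, and Sv2c at 270, against 282 CPM, a description only, since the rule asked the nuclei without Ndnf to hold Lamp5 or Sv2c. Npy and Nos1 were seen in 7 and 8 of the 36 nuclei with Ndnf, against 9 and 16 of the 49 without. The nuclei without Ndnf were themselves mixed, since the 342 Chrm2 UMIs came from 14 of them and the 189 Meis2 UMIs from 15.

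Lhx6 split off a small number. It had a UMI in 10 of 145 members and in 8 of 85 Erbb4 members, 0 of which had Ndnf. With 10 nuclei against 135, 128 of 2820 genes (4.54%) passed 2-fold upward and 453 (16.1%) downward. The lower genes included Glis3, with 1 UMI in the 10 nuclei (0.0253-fold, or at most 0.13-fold without set 3). The members with Slc17a7 carry most Glis3 UMIs (478 of 520). Within the Erbb4 members, 8 nuclei with Lhx6, against 77 without, had 58 of 1209 genes (4.8%) higher and 135 (11.2%) lower. Because Lhx6 was seen at only 13 UMIs in the Erbb4 members, nuclei without a UMI may still express it.

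Pde11a, at 1616 CPM in the 8 nuclei with Lhx6, against 412 CPM without (3.92-fold, 3.17 to 4.83), and Unc5c, at 10366, against 2805 CPM (3.7-fold), had UMIs in 7 of the 8 each. Clstn2, a calsyntenin, was 3.73-fold higher and was seen in all 8, and came to 2.11-fold without set 3. Kit gave no UMI in the 8, against 142 UMIs in 38 of 77, and was at most 0.141-fold, or 0.3-fold without set 3. Meis2 and Ptprz1, a receptor phosphatase, also gave none, for at most 0.104- and 0.101-fold, or 0.206-fold without set 1 and 0.195-fold without set 3. A single nucleus gave 71.5% of the Zfp804a UMIs and 47.5% of the Tenm1 UMIs with Lhx6, and these genes came to 1.14- and 1.96-fold without set 3.

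The 44 members with Slc17a7 differed from the Erbb4 members in many genes. Of 2494, 264 (10.6%) were higher by 2-fold or more and 239 (9.58%) lower in them, and the oligodendrocyte markers given above were higher in them too. Glis3 was at 720 CPM (657 to 787) in the members with Slc17a7, against 4.37 CPM from 3 UMIs in the Erbb4 members (165-fold, 56 to 802), and at 179 CPM in the excitatory reference. Slit3 was at 1989 CPM, against 91.8 CPM in the Erbb4 members (21.7-fold, 16.8 to 28.4, and 33-fold without set 2), and at 1819 CPM in the excitatory reference. Nrn1, neuritin (50.7-fold, 13.7 to 424, and 96.1-fold without set 5), the syntaxin-binding Stxbp6 (21.5-fold) and Htr4 (14.8-fold, 28.8-fold without set 1) were also higher.

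Lower in the members with Slc17a7 were Reln (0.0426-fold, 0.0307 to 0.0575), Alk (0.0451-fold), Adra1a (0.0508-fold, or 0.0287-fold without set 1) and the kainate receptor subunit Grik1 (0.096-fold, 0.0821 to 0.112). Grik1 had UMIs in 16 of 44 of them and in 82 of 85 Erbb4 members. Camk2a, the calcium/calmodulin kinase of excitatory neurons and 1 of the 5 excitatory markers, was at 791 CPM in the members with Slc17a7, against 252 CPM in the Erbb4 members and 1029 CPM in the excitatory reference.

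The 16 members with little Erbb4 came from sets 1 to 3, with 10 in set 1. Of 1570 genes, 83 (5.29%) were higher by 2-fold or more and 167 (10.6%) lower in them than in the Erbb4 members. Slit3 (9.92-fold, 7.34 to 13.6), the GATA cofactor Zfpm2 (9.7-fold) and Tmem108 (9.69-fold) were higher, as in the members with Slc17a7, and Egfr and Kit gave no UMI (at most 0.0416- and 0.0904-fold). Without set 1, which leaves 6 of the 16, these became 23.2-, 25.1- and 26.8-fold and at most 0.12- and 0.253-fold. Chrm2, at 380 CPM in them, against 500 CPM in the Erbb4 members and 16.6 CPM in the members with Slc17a7, did not follow the members with Slc17a7.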

How the data were processed

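All 10 samples share 1 deposited matrix, whose values are raw UMI counts by gene and barcode with no normalization. Per the submitters' processing notes it was made with Cell Ranger 4.0.0 and the builds mm10 and GRCm38. The annotation, intron counting and strand setting behind the matrix were not given in the sources used here, so overlapping and antisense genes cannot be told apart. No column was left unmapped.

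Barcodes with at least 500 UMIs were classed by the counts given in the report. UMIs were summed per class and compared as CPM ratios with exact conditional 95% intervals, which cover counting error only. A gene was called at 2-fold or more among genes with at least 100 UMIs over both sides, leaving out the 11 rule genes and those that chose the compared class (Sst, Erbb4 and, within the members, Slc17a7). Where a side had no UMI, 3 UMIs over the group gave the bound. The same bound stands in for a ratio where leaving out a barcode set took the last UMI of a side. The script was tested on simulated data. Depth was compared after thinning to 2000 UMIs. Doublets were called per barcode set with Scrublet in scanpy 1.11.5 and kept. Positions are from GENCODE M 21 (GRCm38), which held 24797 of 24837 gene IDs. Python 3.11.15, numpy 2.4.6, scipy 1.17.1 and pandas 2.3.3 were used.

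Genes named are, for each comparison, the 12 with the highest lower bound and the 12 with the lowest upper bound (fewer for the narrower comparisons), and members of 24 gene lists. Ranked genes had to be on the same side of 1 in every set with at least 20 nuclei on both sides, or 10 for subsets of members. Against the other classes this used 3 sets for all 145 and 5 for the Erbb4 members. It used 1 set for the members with little Erbb4 and 0 for the Lhx6 and Ndnf splits. The members and lists were chosen with earlier results of these data known. The split by Slc17a7 and Erbb4, the Ndnf comparison, the comparisons of the subsets, and Glis3, Camk2a and Chrm2 as examples across subsets were chosen after the values were seen. Some genes of these lists are not reported here.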

Additional observations from a re-analysis of the deposited data

How the results depend on the processing

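No paired analysis was possible because the barcode sets are not tied to the samples and there is 1 group. Counts of genes past 2-fold (higher and lower) were 250 and 275 against the other classes, 205 and 135 against the Vip or Cnr1 class, 128 and 453 for the Lhx6 split and 42 and 75 for the Ndnf split, with the members at 9.28% of inhibitory nuclei. Leaving out 1 barcode set at a time or, for the Ndnf split, 1 barcode set or 1 of the 3 Erbb4 members with most UMIs gave 190 to 263 and 214 to 336, 150 to 215 and 103 to 150, 119 to 130 and 317 to 453, and 33 to 47 and 58 to 83, with shares of 8.68 to 9.84%. Thinning to 2000 UMIs gave 81 and 136, 66 and 54, and 42 and 87, and a minimum of 500 UMIs a gene gave 88 and 97, 68 and 52, and 43 and 107, with fewer genes tested in both. A minimum of 20 UMIs gave 671 and 697, 688 and 379, and 603 and 1401, and turned the median of the neuropeptides against the Vip or Cnr1 class to log2 0.23, where it was -1.50. The median over barcode sets gave 417 lower genes against the other classes. It could not be had for the Lhx6 split or for Mypn.

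With the Erbb4 members alone, chosen after seeing the data, 129 genes were higher against the other classes, 113 higher against the Vip or Cnr1 class, and 58 higher and 135 lower for the Lhx6 split, and the share was 5.44%. Log2 ratios then reversed for Smoc2 (-2.15), Glis3 (-3.15), Slc24a4 (-0.78), Itga8 (-0.80), Plk5 (-2.06), Plekha2 (-2.03), Slc17a7 (-1.82), Maml2 (-0.18) and Zbtb20 (-0.018) against the other classes, and for Glis3 against the Vip or Cnr1 class (-3.82) and in the Lhx6 split (1.73). With the same cut on both sides, also chosen after seeing the data, 121 and 122 genes were higher against the 2 references, and Smoc2 (-0.51), Glis3 (-2.17), Slc24a4 (-0.13), Plk5 (-1.85), Plekha2 (-1.56) and Glis3 against the Vip or Cnr1 class (-2.47) reversed. Both settings left out 60 of the 145 nuclei, and the second also left out nuclei of the references. Glis3 in the Lhx6 split rested on 3 UMIs in the 85 Erbb4 members. With the Erbb4 members alone, only Glis3 and, by construction, Slc17a7 had intervals wholly below 1 against the other classes. The cause of the reversals was not tested. Of the named genes' ratios under the alternatives listed at the start, 691 kept their size within the counting interval, 112 moved and 0 reversed. A minimum of 20 or 500 UMIs a gene cannot change a ratio, and set 7 held no member. A filter of at least 300 genes and under 5% mitochondrial UMIs changed no count. Each of these gave 48 unchanged ratios. The named genes against the 2 references were also chosen to keep their direction in the larger sets, so the 0 was in part fixed. Depth limits genes at under about 3 UMIs in a class, and members of the Ndnf and Lhx6 splits with no UMI of those genes may still carry their RNA.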
